A study of Mus musculus with 8 samples.

Results

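The genes described here encode the route from palmitoyl-CoA to ceramide, glucosylceramide and sphingosine phosphate. They were chosen by name as Sptlc1, Sptlc2, Kdsr, Cers2, Cers5, Cers6, Degs1, Ugcg, Sphk1 and Sphk2, and all 10 had a row among the 15853 genes of the authors' deposited table. The cells were mouse bone marrow macrophages, grown for 7 days with L929-conditioned medium as the source of M-CSF. Palmitate (C16:0) at 250 uM, glucose at 25 mM and insulin at 10 nM were then given together over 24 h, which the labels call metabolic activation. The control group, with 4 RNA-seq libraries, had the genotype Mirc11fl/fl Mirc22fl/fl Lyz2+/+, so its loxP-flanked miRNA clusters were intact. The knockout group, also with 4 libraries, was Mirc11fl/fl Mirc22fl/fl Lyz2Cre/Cre, with Cre recombinase expressed from both copies of the myeloid gene Lyz2. Both groups received palmitate, so no value here measures a response to it. Loss of the clusters, presence of Cre and disruption of Lyz2 cannot be told apart in this comparison.

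Positive log2 fold changes are read as higher in knockout. That sign was taken from Lyz2, at -9.10 (with SE 0.42) in the authors' deposited table, and deletion of the miRNAs was not measured. The 8 values per library that accompany each gene carry no sample name and were not used, so each gene is shown by its mean, fold change and standard error (SE), and overlap between libraries is unknown. The macrophage label was checked on 8 markers, all of them measured, including Adgre1, which encodes F4/80, with a mean normalized count of 144462, and Csf1r, the M-CSF receptor gene, with 163291, in the authors' deposited table. The mean normalized count is the authors' average over all libraries after scaling for depth.

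As background, the de novo route starts at the endoplasmic reticulum, where serine palmitoyltransferase joins serine to palmitoyl-CoA. The product is reduced to dihydrosphingosine, joined to a further fatty acid by a ceramide synthase, and desaturated to ceramide. Ceramide is then built into sphingomyelin or glycosphingolipids or is split to sphingosine, whose phosphate is a signalling lipid. Saturated fatty acid is both a substrate of the first step and an acyl donor for some ceramide synthases, and ceramide has been widely studied in lipid-loaded macrophages.

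The clusters flanked by loxP encode the miR-23, miR-27 and the miR-24 families, which bind 3' UTRs through their seeds (bases 2 to 8). The mature sequences are shown because the seeds define the sites searched for in the 10 genes. They are from RefSeq (GRCm38.p6), with the seed in capitals, and miR-27a and miR-27b share a seed. The mature miR-23b-3p is named only.
miR-23a-3p: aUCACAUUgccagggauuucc
miR-27a-3p: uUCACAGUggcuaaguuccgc
miR-27b-3p: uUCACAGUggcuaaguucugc
miR-24-3p: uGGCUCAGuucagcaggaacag

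A seed match was counted where the longest annotated 3' UTR of a gene (GENCODE M21, GRCm38, the assembly of mm10) held AATGTGA for miR-23, ACTGTGA for miR-27 or CTGAGCC for miR-24 on the transcript strand. A match followed by A was called an 8-nucleotide match. Sptlc2 held matches of all 3 miRNAs. Kdsr, Cers5, Cers6, Ugcg and Sphk2 held 1 match each, and Sptlc1, Cers2, Degs1 and Sphk1 held none. Thus 6 of the 10 genes had a match, against 40.5% of 13724 genes with a 3' UTR. With 8-nucleotide matches alone the count was 3 of 10, against 19.3%.

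The matches are printed below on the transcript strand with 10 bases on each side and the match in capitals. All lie in the last exon of their transcript. They are shown for every gene of the route that held a match. Of these genes, Sptlc2 was called higher and Cers5 lower in the knockout, and the others were not called.
Sptlc2 miR-24 match, chr12:87309836-87309843, minus strand, exon 12: tgtggcctttCTGAGCCAattccaggaa
Sptlc2 miR-24 match, chr12:87307246-87307252, minus strand, exon 12: agatctgcctCTGAGCCtggactgaca
Sptlc2 miR-23 match, chr12:87305292-87305298, minus strand, exon 12: atcatctgggAATGTGAgatttttaat
Sptlc2 miR-27 match, chr12:87305183-87305190, minus strand, exon 12: atattggatgACTGTGAAgctatacata
Kdsr miR-23 match, chr1:106721223-106721229, minus strand, exon 10: gcactgctgtAATGTGAttttcatatc
Cers5 miR-24 match, chr15:99735993-99735999, minus strand, exon 11: ctggtcacttCTGAGCCcacctcaagt
Cers6 miR-23 match, chr2:69113720-69113727, plus strand, exon 10: aactctccttAATGTGAAactttttttg
Ugcg miR-24 match, chr4:59222015-59222022, plus strand, exon 9: tttcatcttaCTGAGCCAgcccatttgc
Sphk2 miR-27 match, chr7:45710628-45710634, minus strand, exon 7: cgcactcagaACTGTGAggagggtgga

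**Figure D1:**
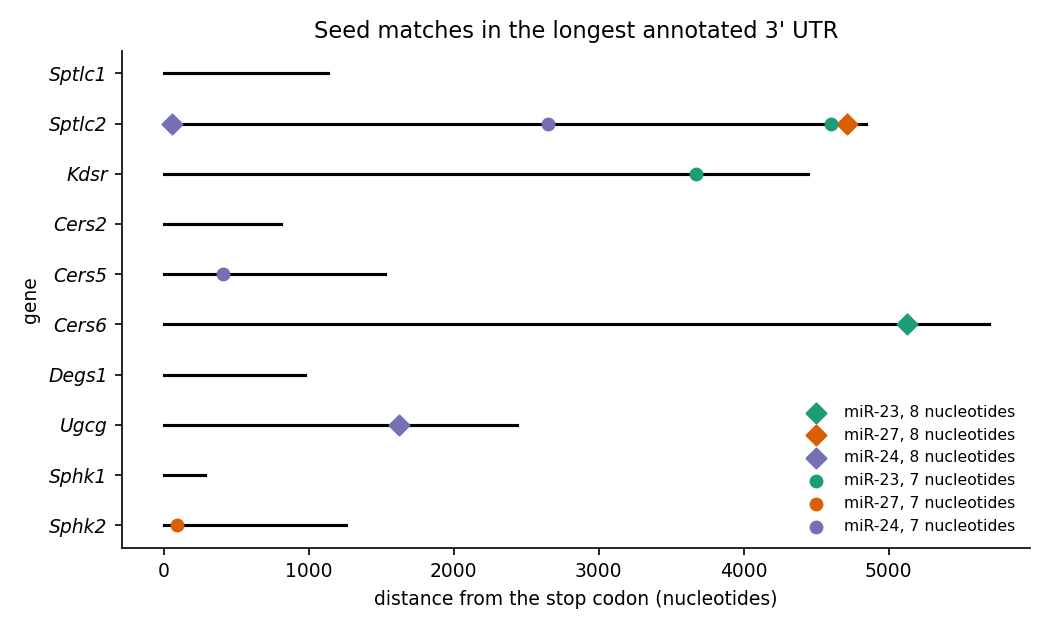
Seed matches in each gene's longest 3' UTR in the annotation, drawn as a line from the stop codon (0) to the UTR end in nucleotides; diamonds are 8-nucleotide and circles 7-nucleotide matches, coloured by miRNA. Sptlc2 carries 4 matches over 4843 nucleotides, and Sptlc1, Cers2, Degs1 and Sphk1 carry none.

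Matches were found in a larger share of genes with long 3' UTRs. Sptlc2 has a 3' UTR of 4843 nucleotides, longer than 95.1% of the genes. Among 892 genes whose 3' UTR differed from it by at most a ratio of 0.8 (shorter over longer), 81.3% held at least 1 match and 6.50% held all 3 kinds. Of the genes of that length, 17.5% were called higher and 9.59% lower in the knockout. The 3' UTR of Sphk1 is only 288 nucleotides, and 11.4% of genes of like length held a match. For the other genes with a match, that share was 83.5% (Cers6), 79.4% (Kdsr), 62.5% (Ugcg), 48.05% (Cers5) and 42.8% (Sphk2). For the other genes without one it was 39.0% (Sptlc1), 34.15% (Degs1) and 29.7% (Cers2). A match is a description of the sequence, and binding was not measured.

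Markers of other cells moved in the same comparison. For the counts below, 11.3% of all 14619 genes with an adjusted p-value were called higher in the knockout and 11.7% lower. Of 16 measured fibroblast and stromal markers, 15 were called higher and 0 lower, with a median log2 fold change of 1.96. By adjusted p the first were Postn (1.86), Acta2 (1.43), Col1a2 (2.18) and Fbn1 (2.03) in the authors' deposited table. The summed derived level of the 16 markers went from 3247 normalized counts in control to 12910 in knockout. Within that sum Fn1 alone went from 1150 to 5175. None of the 16 markers was at 0, and the lowest was Thy1 with a mean of 6.95. Macrophage markers had 1 of 8 called higher (Adgre1) and 4 lower (Spi1, Csf1r, Cd68 and Fcgr1), with a summed level of 610335 against 545046. Endothelial markers had 2 of 3 higher (Pecam1 and Cdh5) and 1 lower (Kdr). Neutrophil, lymphocyte and dendritic markers had 0 calls by DESeq2, and 0 at an unadjusted p under 0.05, among 4 tested. Those 4 had low means (S100a8 76.8, Zbtb46 18.2, Xcr1 15.2 and Ms4a1 12.5). Their SE ran from 0.27 to 0.55, so a change could have been missed. Whether other cells were present, and had a part in the values of Sptlc2, Cers2, Cers5 and the wider list, was not tested. In bulk RNA, fewer cells of a type and less RNA per cell cannot be told apart.

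Serine palmitoyltransferase, the enzyme of the first and committed step, is built from Sptlc1 and Sptlc2. Sptlc2, which carries the catalytic cofactor, was higher in the knockout, and Sptlc1, its obligate partner, did not pass the test. Sptlc2 (chr12:87305058-87388355, minus strand) had derived group means of 6821 normalized counts in control and 8411 in knockout. The authors' deposited table put its log2 fold change at 0.30 (with SE 0.09 and adjusted p = 0.00355 by DESeq2), which is a 1.23-fold difference with a 95% interval of 1.10 to 1.38. Sptlc1 (chr13:53332748-53377397, minus strand) had derived means of 3726 and 3575. The authors' deposited table put its log2 fold change at -0.06 (with SE 0.06 and adjusted p = 0.471), with an interval of 0.890 to 1.03-fold. Centring all fold changes on the summed group means turned its sign, to 0.0035 (adjusted p = 0.975). Per kb of the longest coding transcript, Sptlc2 stood at 0.711 times the level of Sptlc1 in control and 0.914 times in knockout, a change in ratio that was not tested, since the covariance of the estimates is unknown.

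The regulators of this enzyme moved in different directions. Sptssa, the small subunit that activates the complex, was at 0.28 (with SE 0.12 and adjusted p = 0.0656) in the authors' deposited table, short of the threshold, but passed it with fold changes centred on the summed group means (adjusted p = 0.0206). The ORMDL proteins hold the enzyme in check when ceramide is plentiful. Ormdl1 was higher at 0.22 (with SE 0.08 and adjusted p = 0.0336) and Ormdl2 lower at -0.31 (with SE 0.08 and adjusted p = 0.00142) in the authors' deposited table. Ormdl3 was at -0.11 (with SE 0.07 and adjusted p = 0.233) there. Sptssb had no row among the 15853 genes and so has no value here. Of the 4 genes measured, 1 was called higher and 1 lower, against 11.3% of all genes called higher and 11.7% lower.

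**Figure D2:**
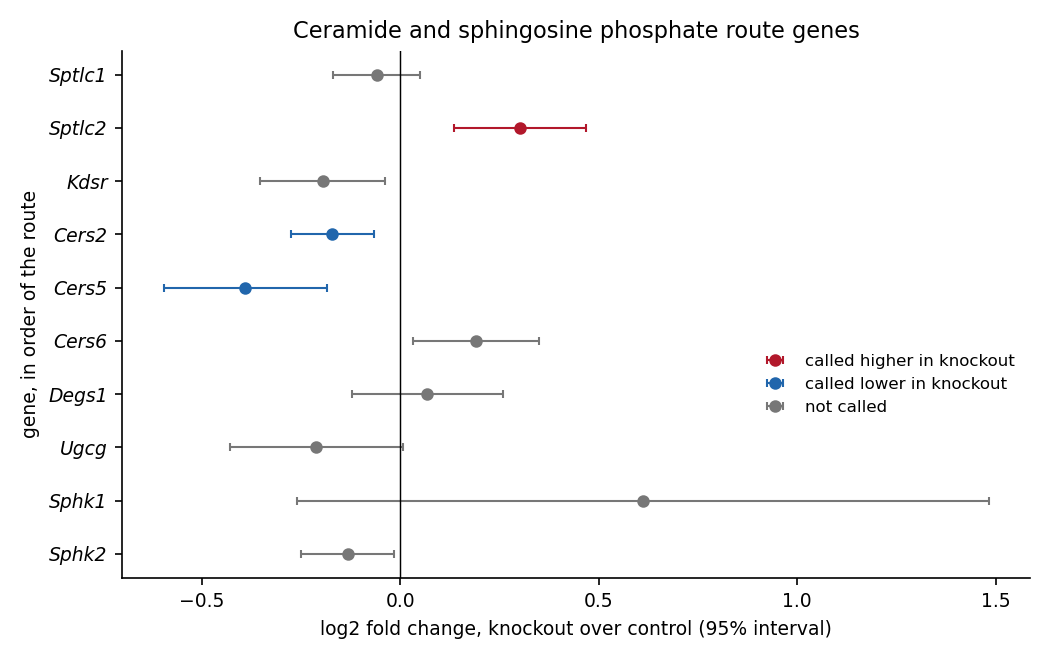
Log2 fold change of each gene of the route, knockout over control, with its 95% interval (1.96 SE) from the authors' deposited table, in the order of the route from top to bottom. Sptlc2 lies to the right of 0 and Cers2 and Cers5 to the left, while the interval of Sphk1 is the widest.

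Kdsr (chr1:106720459-106759727, minus strand) encodes the reductase of the second step. Its derived means were 1173 normalized counts in control and 1025 in knockout. In the authors' deposited table it was at -0.19 (with SE 0.08 and adjusted p = 0.0625) and did not pass. A change of 0.20 on the log2 scale would have been needed to pass at its SE.

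Among the ceramide synthases, Cers2 and Cers5 were lower in the knockout and Cers6 had a positive fold change that missed the threshold. Cers2 prefers very long acyl chains, while Cers5 and Cers6 prefer palmitoyl-CoA. Cers5 (chr15:99734881-99772885, minus strand) had derived means of 3985 normalized counts in control and 3041 in knockout. The authors' deposited table put its log2 fold change at -0.39 (with SE 0.11 and adjusted p = 0.00213), a 0.763-fold level with an interval of 0.662 to 0.880. Cers6 (chr2:68861441-69114282, plus strand), with derived means of 6528 and 7454, was at 0.19 (with SE 0.08 and adjusted p = 0.0679) in the authors' deposited table, an interval of 1.02 to 1.27-fold. The 2 synthases of like substrate thus had intervals that did not overlap, on either side of 1, but the difference between them was not tested.

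Cers2 (chr3:95314791-95323599, plus strand) had derived means of 22196 and 19720 normalized counts. In the authors' deposited table it was at -0.17 (with SE 0.05 and adjusted p = 0.00972), so it fell by 11.2%. Centred on the summed group means, Cers2 no longer passed (adjusted p = 0.133) and Cers6 did, as higher (adjusted p = 0.0113). Exons of Setdb1 and of an antisense transcript lie on the opposite strand across Cers2, and the sources used here do not say whether counting used strand. Setdb1 itself was at 0.05 (with SE 0.07) in the authors' deposited table. Per kb of the longest coding transcript, Cers2 made up 80.9% of the summed level of these 3 synthases in control and 80.5% in knockout. Cers5 went from 11.6% to 9.91% and Cers6 from 7.49% to 9.58%, shares derived from group means and given without a test. The shares depend on the length used. Over all libraries Cers5 stood at 1266 and Cers6 at 993 normalized counts per kb by this length. With the median transcript length they stood at 3974 and 1681.

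Of the other ceramide synthases, Cers4, which acts on stearoyl-CoA and longer chains, was lower at -0.69 (with SE 0.20 and adjusted p = 0.00414) in the authors' deposited table. Its mean normalized count was 344, far under those of Cers2 and Cers6. Cers3, the synthase of skin and testis, was near the detection limit with a mean of 7.80 and a log2 fold change of 0.32 (with SE 0.65) in the authors' deposited table. Elovl1, an elongase that supplies very long acyl chains to Cers2, was lower at -0.26 (with SE 0.09 and adjusted p = 0.0251) in that table, and lost its call when centred on the summed group means (adjusted p = 0.106).

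Degs1 (chr1:182275772-182282804, minus strand) encodes the desaturase that turns dihydroceramide into ceramide. It had derived means of 16248 normalized counts in control and 17045 in knockout. The authors' deposited table put its log2 fold change at 0.07 (with SE 0.10 and adjusted p = 0.654). The interval of 0.920 to 1.20-fold sets the range of differences that these libraries allow for it.

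Ugcg (chr4:59189257-59222833, plus strand) encodes glucosylceramide synthase, the entry to glycosphingolipids. With derived means of 1283 and 1109 normalized counts, it was at -0.21 (with SE 0.11 and adjusted p = 0.161) in the authors' deposited table, short of the threshold. Further along that branch, B4galnt1, a ganglioside synthase, was lower at -0.23 (with SE 0.07 and adjusted p = 0.00623) in the authors' deposited table, a call lost when centred on the summed group means (adjusted p = 0.0595).

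The sphingosine kinases, which make sphingosine phosphate, did not pass the test. Sphk2 (chr7:45709467-45718002, minus strand) had derived means of 7383 normalized counts in control and 6738 in knockout. In the authors' deposited table it was at -0.13 (with SE 0.06 and adjusted p = 0.0921). Its exons overlap those of Dbp and Rpl18 on the opposite strand, which were at -0.32 (with SE 0.17) and -0.08 (with SE 0.06) in the authors' deposited table. Sphk1 (chr11:116530925-116536674, plus strand) was scarce, with derived means of 29.6 and 45.2 normalized counts. Its log2 fold change of 0.61 (with SE 0.44 and adjusted p = 0.333) in the authors' deposited table is the largest of the 10 in size and has the widest interval, 0.836 to 2.79-fold. At its SE a 2.18-fold rise would have been needed to pass. An annotated antisense transcript, Gm29292, overlaps Sphk1.

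Per kb of the longest coding transcript, Cers2 (9458 normalized counts per kb) and Degs1 (8128) were the most abundant of the 10 genes, and Sphk1 (14.1) the least. Sphk2 stood at 141 times the level of Sphk1 by this measure, and at 113 times with the median transcript length. Ugcg (298) and Kdsr (199) were the lowest of the remaining genes. Of middle level, Sphk2 (1990), Sptlc1 (1401), Cers5 (1266), Sptlc2 (1135) and Cers6 (993) lay closer together, and their order changed with the median transcript length, which put Cers5 at rank 3. The spread of a level between libraries is unknown here, so the order of neighbours is not tested.

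**Figure D3:**
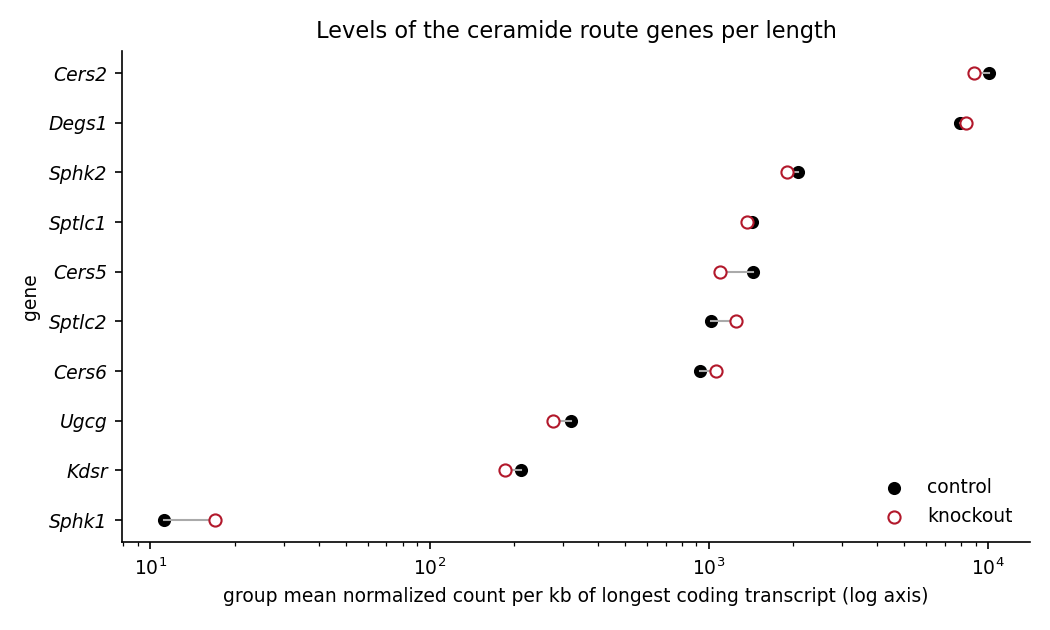
Derived group means of the 10 genes as normalized counts per kb of the longest coding transcript, on a log axis, with filled points for control and open points for knockout. The span from Sphk1 to Cers2 is far wider than the gap between groups for any gene.

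Over the whole route, 3 of the 10 genes were called, 1 higher and 2 lower, at an adjusted p under 0.05. Across the 14619 genes with an adjusted p-value, 23.0% were called, 11.3% higher and 11.7% lower. Among genes with a mean of at least 1000, as 9 of the 10 have, 25.8% were called. The share of the route is near that background. At an unadjusted p under 0.05, 6 of the 10 passed (Sptlc2, Kdsr, Cers2, Cers5, Cers6 and Sphk2), against 34.8% of all genes. The median log2 fold change of the 10 was -0.10, against -0.0040 for all genes. The largest change among the called genes was that of Cers5, and the absolute fold changes ranked between the percentiles 18.4 (Sptlc1) and 84.4 (Sphk1) of all genes. With fold changes centred on the summed group means (-0.06 subtracted from each, which moves all of them up), the route had 2 genes higher (Sptlc2 and Cers6) and 1 lower (Cers5), and over all genes there were 2339 higher and 960 lower in place of 1651 and 1712. Sptlc2 and Cers5 kept their direction and their side of the threshold under all 6 alternatives of filter, scaling and threshold, with the highest adjusted p at 0.00385 for Sptlc2 and 0.0126 for Cers5. Only the alternatives of scaling alter a fold change, so only they could have turned a direction.

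**Figure D4:**
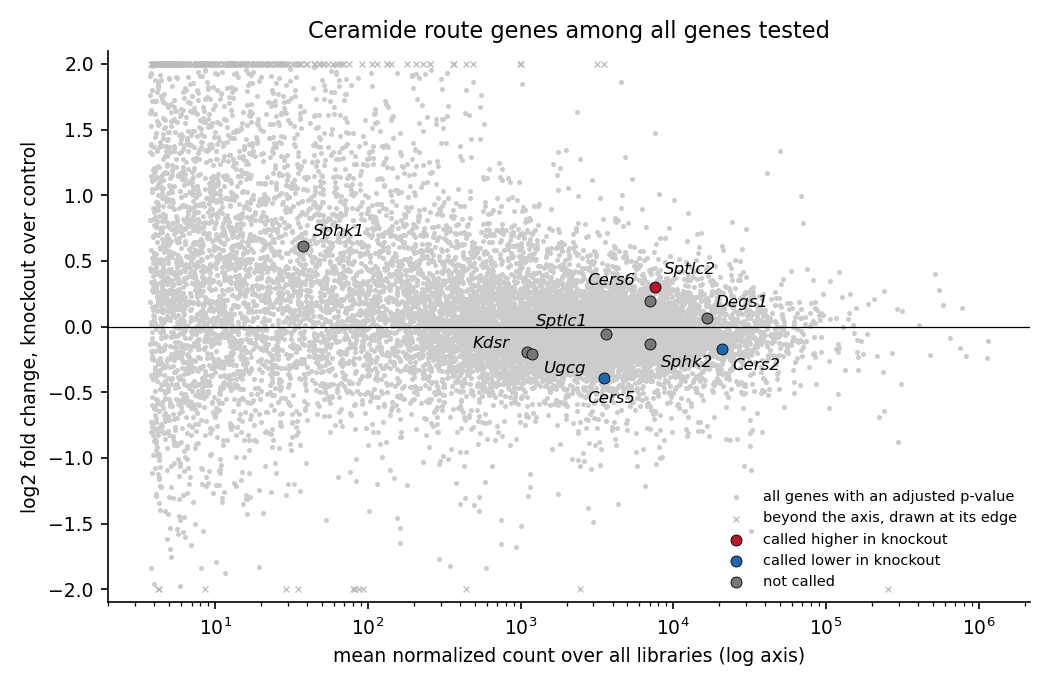
Log2 fold change against mean normalized count (log axis) for all genes with an adjusted p-value in grey, with the 10 genes of the route on top. Sphk1, at a mean of 37.4, lies apart on the left, and the other 9 genes have means of 1099 or more and fold changes close to 0.

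The wider sphingolipid pathway was described with a list of further genes by role, of which 57 had an adjusted p-value. Of these, 5 were called higher and 14 lower, 33.3% in all, against 23.0% of all genes (11.3% higher and 11.7% lower). The median log2 fold change was -0.03, against -0.0040 for all genes. Centred on the summed group means the split was 9 higher and 5 lower, so the lean toward lower calls depended on the scaling. With that centring 64.3% of the calls in the list were higher, against 70.9% of the calls over all genes.

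The sphingomyelinase family list had 4 members called lower of 7 and 0 higher, against 11.7% of all genes called lower. It includes Smpdl3a and Smpdl3b, which share sequence with acid sphingomyelinase but are not established to break down sphingomyelin. Smpdl3a and Smpdl3b were at -0.40 (with SE 0.15 and adjusted p = 0.0343) and -0.46 (with SE 0.16 and adjusted p = 0.0257) in the authors' deposited table. Smpd1, the lysosomal acid sphingomyelinase, was at -0.19 (with SE 0.07 and adjusted p = 0.0457) and Smpd2, a neutral sphingomyelinase, at -0.21 (with SE 0.08 and adjusted p = 0.0429) there. With fold changes centred on the summed group means 0 of the 7 passed, and all 4 kept a negative sign. In the sphingomyelin synthase family (Sgms1, Sgms2 and Samd8) DESeq2 made 0 calls among 3 genes, of which 1 had an unadjusted p under 0.05. Centred on the summed group means, 1 of the 3 was called higher.

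Ceramidases, which release sphingosine, were split, with 1 higher and 2 lower of 5, against 23.0% of all genes called. Asah2, the neutral ceramidase, was higher at 0.33 (with SE 0.09 and adjusted p = 0.00154) in the authors' deposited table. The lysosomal enzyme Asah1 was lower at -0.16 (with SE 0.04 and adjusted p = 0.000731), and the alkaline ceramidase Acer3 at -0.19 (with SE 0.07 and adjusted p = 0.0406), in the authors' deposited table. Both falls missed the threshold when centred on the summed group means (adjusted p = 0.0619 for Asah1 and 0.197 for Acer3). Cerk, which makes ceramide phosphate, was lower at -0.28 (with SE 0.05 and adjusted p = 1.08e-06) in that table, and the transfer protein gene Cert1 was at 0.03 (with SE 0.12).

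Downstream of sphingosine phosphate, 1 of 9 genes was called, against 23.0% of all genes. Sgpl1, the lyase that ends the pathway, was abundant, with a mean of 46173 normalized counts, and was at 0.04 (with SE 0.07 and adjusted p = 0.716) in the authors' deposited table. S1pr3, a receptor, was called higher at 2.45 (with SE 0.87 and adjusted p = 0.0259) in the authors' deposited table, but from a mean of only 4.85. The receptors S1pr1 and S1pr2 were at -0.19 (with SE 0.15) and -0.03 (with SE 0.10) there.

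Breakdown of glycosphingolipids had 2 genes higher and 3 lower of 12, against 23.0% of all genes called in either direction. Centred on the summed group means, with or without Lyz2, the split was 4 higher and 2 lower. Over all genes 70.9% of the calls were higher with that centring, and 67.7% without Lyz2. Hexa, a hexosaminidase subunit gene (-0.18, SE 0.05, adjusted p = 0.0045), and Gm2a, an activator protein gene (-0.28, SE 0.09, adjusted p = 0.00824), were lower in the authors' deposited table. Hexa lost its call when centred on the summed group means (adjusted p = 0.0855). Gba2, a non-lysosomal glucosylceramidase, was higher at 0.60 (with SE 0.11 and adjusted p = 1.02e-06), and Neu1, a sialidase, at 0.25 (with SE 0.05 and adjusted p = 3.12e-05), in that table.

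Genes that supply serine, the other substrate of the first step, had 1 member called higher of 8, near the 11.3% of all genes called higher. Psat1, of serine synthesis, was at 0.53 (with SE 0.17 and adjusted p = 0.0131) in the authors' deposited table. Phgdh, the first enzyme of that synthesis, was at 0.34 (with SE 0.19 and adjusted p = 0.181), Shmt1 at 0.70 (with SE 0.30 and adjusted p = 0.0756) and Slc1a4, a serine transporter gene, at 0.33 (with SE 0.21 and adjusted p = 0.259) there. These are the genes of the list with the smallest adjusted p. Of all 8, 5 had a positive and 3 a negative fold change.

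**Figure D5:**
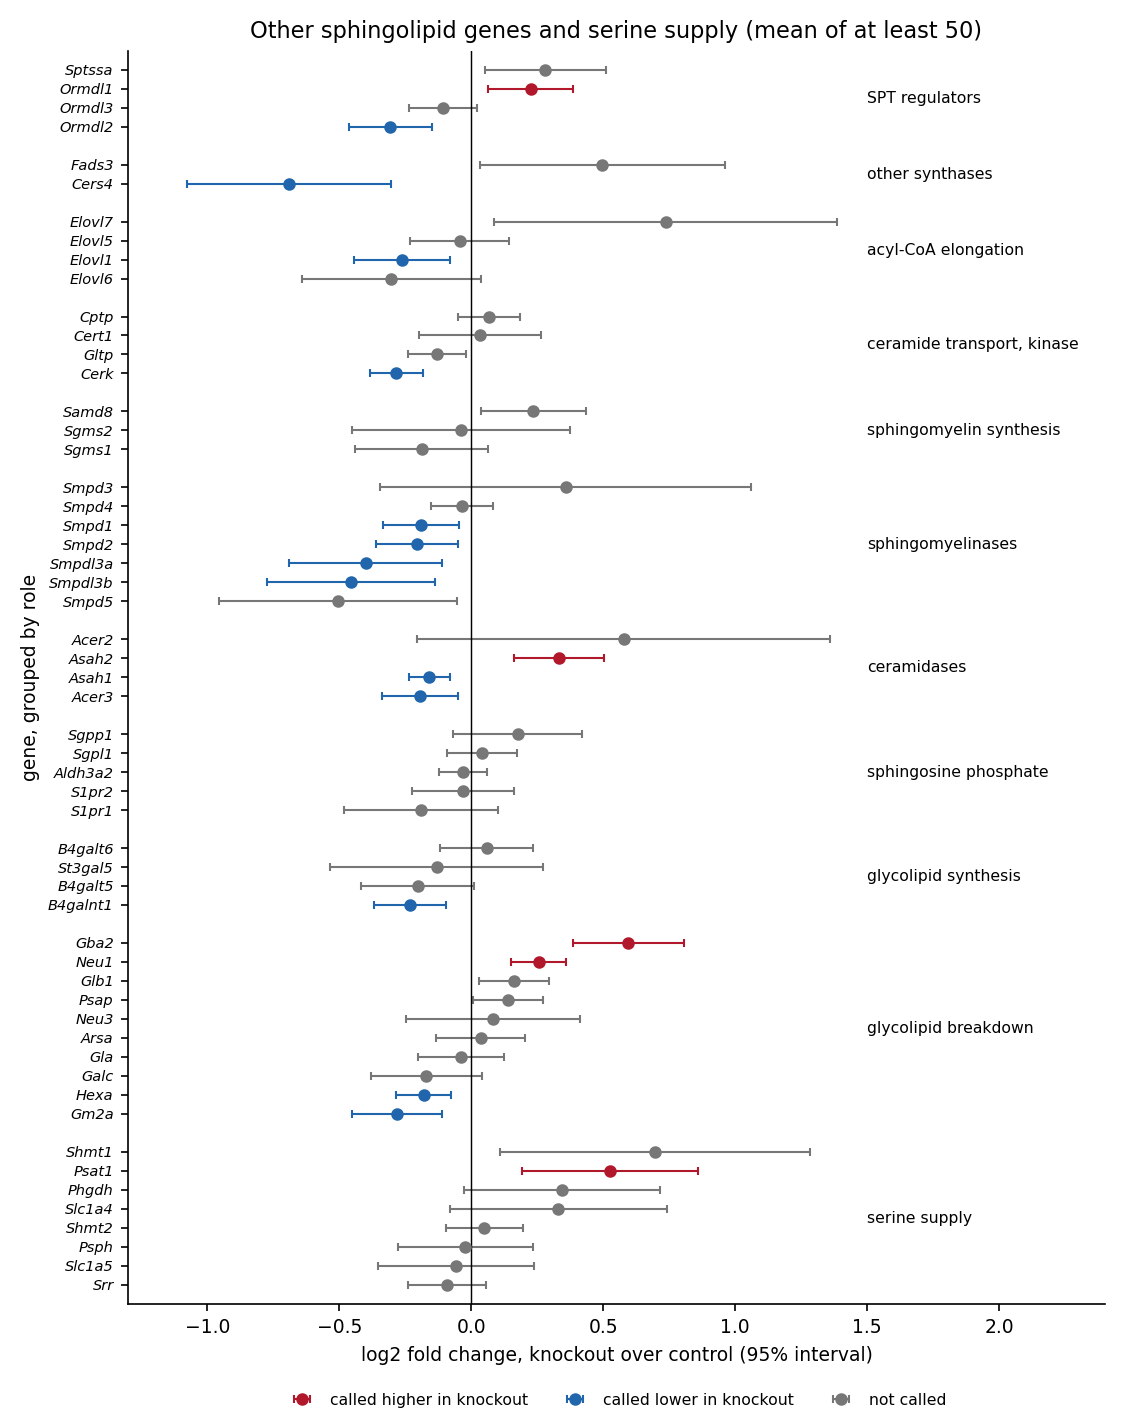
Log2 fold change, knockout over control, with 95% interval (1.96 SE) for the other sphingolipid genes and the serine supply genes with a mean of at least 50 that are reported here, grouped by role. The sphingomyelinases lie mostly to the left of 0, and the ceramidases and glycolipid breakdown genes lie on both sides.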

How the data were processed

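Polyadenylated RNA of 8 libraries, 4 per genotype, was sequenced. Per the submitters' processing notes, the tools were DESeq2, Salmon, cutadapt and FastQC and the build was mm10; versions and roles are not given in the sources. Per the file headers, the authors deposited for each gene a mean normalized count (a signal over all libraries), a log2 fold change with its SE, a Wald score and p-values before and after adjustment. The deposited Wald score equals the log2 fold change over its SE to within 1.1e-07, and adjusted p-values recomputed by Benjamini-Hochberg differed by at most 5.7e-09. The 8 columns of normalized counts per library have numbers that match no sample label and were left out. Depth per library is therefore unknown here, and replicates could not be compared. The series describes the libraries as biological replicates, but no label ties them to separate animals or cultures, so the spread behind the p-values could be technical.

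Calls are the authors' DESeq2 calls at an adjusted p under 0.05 among 14619 genes; genes without an adjusted p-value had a mean of at most 3.75. Group means were derived from the mean and the fold change for groups of equal size, and 95% intervals as 1.96 SE. The adjustment and the motif search were tested on simulated data. The derived group means were not tested in this way, since they return the deposited mean and fold change by construction. Of the table's symbols, 15187 (95.8%) matched 1 gene of GENCODE M21. Python 3.11.15, pandas 2.3.3 and scipy 1.17.1 were used. The members and lists were chosen with earlier results of these data known. All 10 members are named, as are the called genes of the wider list (some genes of that list are counted but not reported singly here), the partner subunits of serine palmitoyltransferase, up to 4 serine genes and markers by smallest adjusted p, and Lyz2. Other genes named (Fcgr1, Cers3, Cert1, Sgpl1, S1pr1, S1pr2, the sphingomyelin synthases and overlapping genes) were chosen after their values were seen. Alternatives were other filters on the mean, centred fold changes, a stricter threshold, 8-nucleotide matches alone, another choice of 3' UTR and median transcript length.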

Additional observations from a re-analysis of the deposited data

How the results depend on the processing

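For the 10 genes of the route, 54 of 59 values under 6 alternatives kept their direction and their side of the threshold. Many of these outcomes were fixed in advance, here and for the wider lists below. The filters on the mean and the stricter threshold leave each fold change as it was, so no direction could turn under them. Under the stricter threshold a gene not called at 0.05 could not gain a call. The values that moved came with fold changes centred on the summed group means, with or without Lyz2 (the latter chosen after seeing the data). Sptlc1 turned to 0.0035 with Lyz2 included. Cers2 lost its call (adjusted p = 0.133, or 0.0948 without Lyz2), Cers6 gained one (0.0113 or 0.0162), and the change follows from the construction, since -0.06 or -0.05 was subtracted from each fold change, moving all of them up. Over all alternatives adjusted p ran from 0.00855 to 0.133 for Cers2, from 0.00183 to 0.0126 for Cers5 and from 0.000283 to 0.00385 for Sptlc2. Of the named genes of the wider lists, 103 of 131 values stayed the same and 0 reversed. At an adjusted p under 0.01, by construction, 2056 genes of the table passed, 11 of the wider list and 0 serine genes, for which 2 of 8 had an unadjusted p under 0.05. With 8-nucleotide matches alone 3 genes of the route held a match in place of 6, and with the 3' UTR of the longest coding sequence 5, since that of Cers6 is then 50 nucleotides. The median level of the 10 genes was 1200 normalized counts per kb, and 1541 with the median transcript length. Sphk1 has no value at a mean of at least 50. Leaving out replicates, a replicate block and fits on values per library were not run. No paired analysis was possible because columns for single libraries name neither sample nor group.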

Other observations

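Genes of the wider sphingolipid list were also searched for seed matches of miR-23, miR-27 and miR-24. A match lay in the longest 3' UTR of 4 of 5 genes called higher (Ormdl1, Asah2, Gba2 and Neu1, but not S1pr3), of 5 of 14 called lower and of 19 of 37 not called, against 40.5% of all genes with a 3' UTR. Their median 3' UTR lengths were 1347, 665.5 and 1634 nucleotides. No test was made of these counts. Across the table, 221 genes held a match of each of the 3 miRNAs, as Sptlc2 does, and of the 213 with an adjusted p-value 23.5% were called higher and 7.51% lower. The shares over all genes were 11.3% higher and 11.7% lower. Genes with any match stood at 15.8% higher and 10.15% lower, and genes with none at 9.52% and 14.4%. Genes with a 3' UTR of a length like that of Sptlc2, whatever their matches, stood at 17.5% and 9.59%. In the wider list Cers3 and S1pr2 held all 3 kinds, and their log2 fold changes in the authors' deposited table were 0.32 (SE 0.65) and -0.03 (SE 0.10).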
